A study of Mus musculus with 4 samples.

Results

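The fatty acid oxidation enzymes described here are 37 named genes whose products activate fatty acids, carry them into mitochondria and break them down, together with peroxisomal partners and the uncoupling proteins Ucp2 and Ucp3. The list was fixed by gene symbol, and each gene was read from 1 probe set, the brightest on average of those annotated with that gene alone. Of the 37 genes, 34 were measured, and all 34 passed the low-signal filter that left 12565 of 18193 named genes. The only probe set for Cpt1b, the muscle carnitine palmitoyltransferase, carried 3 genes and was not used. Acsl1 and Ucp2 were not analysed here.

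RNA came from the gastrocnemius, a calf muscle made mostly of fast fibres, of male mice from a cross of C57BL/6N and FVBN aged 2 to 4 months. Control mice, named wild type in the labels, carried floxed FoxO1,3,4 alleles without Cre per the study's methods. In knockout mice the MLC1f promoter, active in fast fibres and not in slow ones, drove Cre, so slow fibres and the non-muscle cells of the tissue keep their FoxO genes. Fed mice of either genotype ate freely, and starved mice had water without food for 24 h. Each of the 4 conditions was measured on 1 Affymetrix Mouse Genome 430 2.0 array, hybridised with RNA pooled from 6 muscles of 3 mice. With 1 array per condition no spread between mice can be calculated, and no value below carries a test, a p-value or an error. A gene is called here when the ratio of its signals passes 1.5-fold, the threshold of the study's methods, and "rose" and "fell" are used only of called genes. In whole muscle, fewer cells of a type and less RNA per cell cannot be told apart.

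Long-chain fatty acids are joined to coenzyme A by acyl-CoA synthetases, exchanged onto carnitine for passage across the mitochondrial membranes, and shortened in cycles of oxidation, hydration, oxidation and thiolysis. Malonyl-CoA blocks the carnitine step. Electrons leave through the electron transfer flavoprotein. Skeletal muscle relies on this pathway in starvation, when glucose is spared, and many of its genes are known targets of PPAR nuclear receptors.

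The array signals of the targeted genes were read first. Foxo1 gave 303.8 and 554.4 in fed and starved controls and 185.2 and 165.5 in knockout. Foxo4 gave 296.9 and 291.3 in control and 31.3 and 34.3 in knockout. Foxo3 gave 250.1 and 477.8 in control and 297.3 and 460.9 in knockout, so its probe set was not lower in the arrays labelled knockout, and whether it lies in the deleted part is not given in the sources used here. All 13 muscle fibre markers, among them Acta1 and Ckm, stayed within 1.5-fold in the 4 comparisons. Summed signals of the 8 endothelial markers ranged from 2934.3 to 3700.3, of the 9 macrophage markers from 5159.3 to 7620.9 and of the 6 fibroblast markers from 20658.5 to 30444.1, each highest in fed control muscle. On starvation the fibroblast sum went from 30444.1 to 22392.7 in control and from 27102.2 to 20658.5 in knockout. Of these 6 markers, 3 fell in control and 4 in knockout, and none rose. Of the 8 hair shaft and epidermis markers, the hair shaft genes were high on the fed control and starved knockout arrays alone. Krt25 gave 252.9 and 6.9 in control and 18.2 and 318.5 in knockout, S100a3 gave 180.9 and 1.3 against 1.8 and 117.5, and Prr9 gave 155.5 and 11.1 against 20.1 and 250.9. The epidermal Krt10 was highest in fed knockout, at 657.6, and lowest in fed control, at 200.6.

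On starvation, 6 of the 34 genes rose in control muscle and none fell. Among all 12565 genes 9.23% rose and 14.2% fell in that comparison. In knockout muscle 10 of the 34 rose and 1 fell, where 7.39% of all genes rose and 9.45% fell. Mlycd, Acacb, Eci2 and Ucp3 rose in both genotypes. Cpt1a and Acad10 rose in control only, and Acsl3, Acadl, Hadha, Decr1, Etfdh and Hsd17b4 in knockout only, which is a statement about the threshold and not a tested difference. The other 22 genes were called in neither genotype. Shares of all genes called in both genotypes, in only 1 or in neither were not calculated, so these overlaps are counts alone. For 20 of the 34 genes, 58.8%, both starved arrays gave a higher signal than both fed arrays, as they did for 12.2% of all genes. The median log2 ratio of the members was 0.20 for controls and 0.36 for knockout muscle, beside -0.11 and -0.06 over all genes. The median thus lay 0.32 above that of all genes in control and 0.42 above it in knockout.

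**Figure D1:**
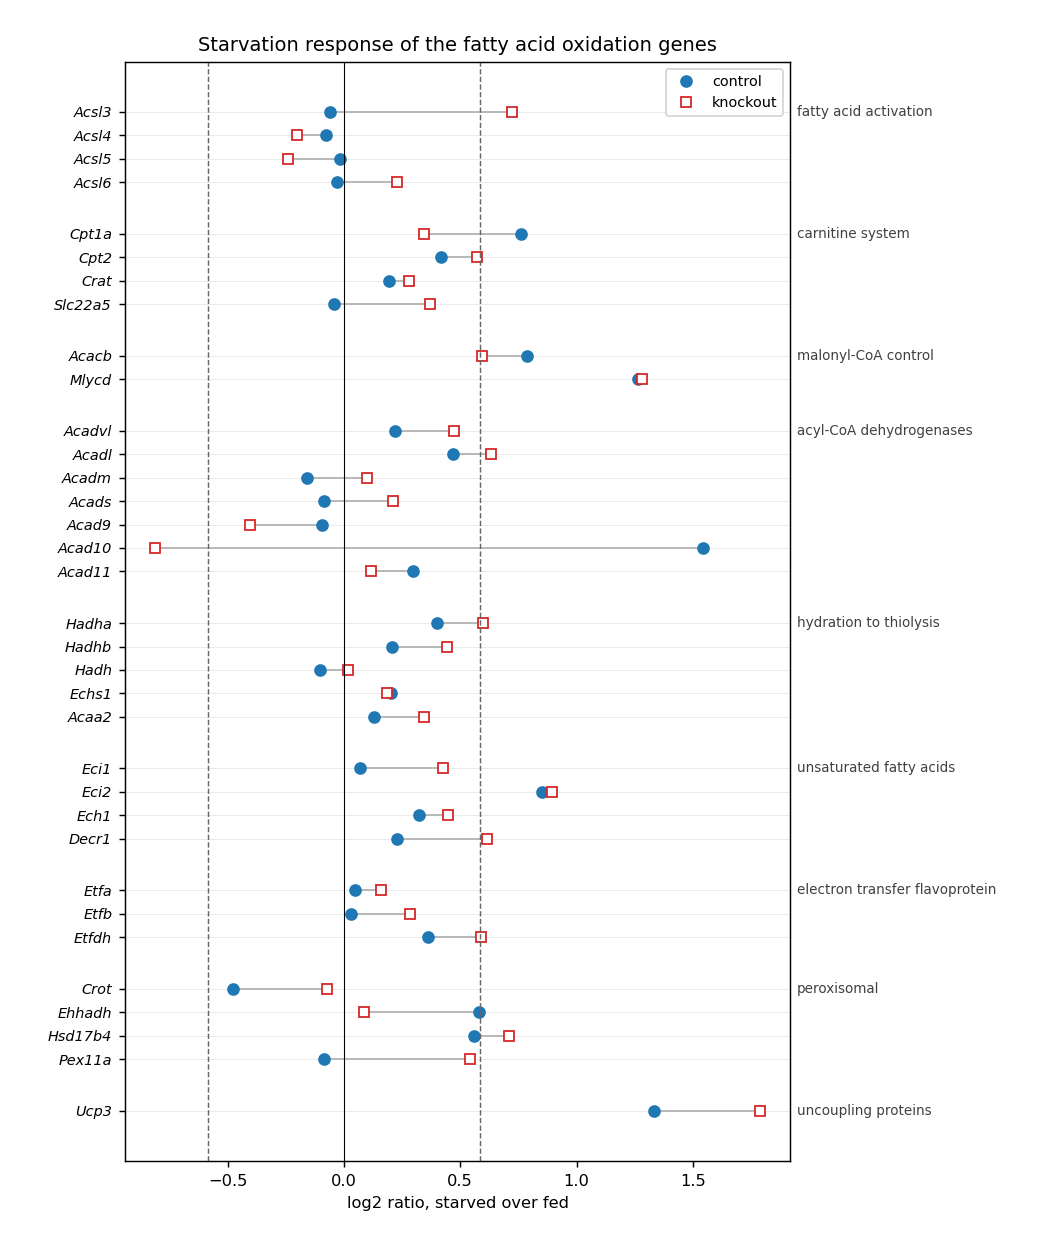
Log2 ratio of starved over fed signal (horizontal axis) for each of the 34 measured genes, grouped by role, in control muscle (filled circles) and knockout muscle (open squares), 1 array per condition. The 1.5-fold limits are dashed, and the grey bar joins both genotypes. Mlycd, Eci2 and Ucp3 lie beyond the upper line in both genotypes, and for 25 of the 34 genes the square lies to the right of the circle.

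The only measure of error that these arrays offer is the scatter between probe sets of the same gene. Probe sets may bind different transcripts, so the scatter need not be technical alone. Taken on the same arrays, it leaves out error shared by a whole array and variation between mice. Estimated from the difference between the probe sets of a gene, the SD of a starvation log2 ratio in control muscle was 0.55 where the dimmer of them had a mean signal under 100, 0.22 between 100 and 500, 0.16 between 500 and 2000, and 0.13 above 2000. The corresponding SD of the difference between the genotypes' log2 ratios was 0.75, 0.28, 0.20 and 0.15. Of the members, 24 had a mean signal of 500 or more. Acad10 was the dimmest, and its highest signal was 84.3.

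Promoters of genes that rose in control muscle are shown here because PPAR receptors bind repeats of the letters AGGTCA. The windows run from 250 bases before to 50 bases after the gene start, in RefSeq annotation of GRCm38.p6, and capitals mark AGGTCA or, on the other strand, TGACCT. The first sequences are those of the genes called up in both genotypes, and Cpt1a follows. They lie at chr7:100472741-100473040 on the plus strand for Ucp3, chr8:119394644-119394943 plus for Mlycd, chr5:114165268-114165567 plus for Acacb, chr13:34994095-34994394 minus for Eci2 and chr19:3323051-3323350 plus for Cpt1a.
Ucp3: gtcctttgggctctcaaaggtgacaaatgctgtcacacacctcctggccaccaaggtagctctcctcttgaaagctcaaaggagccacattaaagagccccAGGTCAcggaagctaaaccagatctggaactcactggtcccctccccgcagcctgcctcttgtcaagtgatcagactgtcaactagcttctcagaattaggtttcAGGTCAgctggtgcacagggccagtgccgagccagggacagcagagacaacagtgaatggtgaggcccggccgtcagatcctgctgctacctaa
Mlycd: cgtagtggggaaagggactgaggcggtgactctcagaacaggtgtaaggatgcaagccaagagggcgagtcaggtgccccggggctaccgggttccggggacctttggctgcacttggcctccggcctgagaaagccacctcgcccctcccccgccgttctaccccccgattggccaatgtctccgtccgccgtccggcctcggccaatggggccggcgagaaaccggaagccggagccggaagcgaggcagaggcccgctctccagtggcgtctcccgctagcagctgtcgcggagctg
Acacb: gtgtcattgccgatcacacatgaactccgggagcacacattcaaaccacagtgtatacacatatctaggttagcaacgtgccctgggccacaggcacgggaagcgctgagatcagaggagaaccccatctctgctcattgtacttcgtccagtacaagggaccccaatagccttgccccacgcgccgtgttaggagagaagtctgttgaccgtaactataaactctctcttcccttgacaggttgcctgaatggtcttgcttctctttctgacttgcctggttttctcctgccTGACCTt
Eci2: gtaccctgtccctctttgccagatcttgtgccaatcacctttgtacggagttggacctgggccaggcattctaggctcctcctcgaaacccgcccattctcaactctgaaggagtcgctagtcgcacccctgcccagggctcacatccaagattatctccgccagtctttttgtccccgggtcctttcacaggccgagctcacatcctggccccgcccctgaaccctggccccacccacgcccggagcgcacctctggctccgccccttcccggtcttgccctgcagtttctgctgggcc
Cpt1a: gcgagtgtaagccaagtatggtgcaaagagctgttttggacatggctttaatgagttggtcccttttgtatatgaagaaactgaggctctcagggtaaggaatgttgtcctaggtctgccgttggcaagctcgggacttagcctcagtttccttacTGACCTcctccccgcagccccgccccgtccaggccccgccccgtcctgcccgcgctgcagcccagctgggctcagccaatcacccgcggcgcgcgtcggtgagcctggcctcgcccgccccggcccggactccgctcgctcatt
The Ucp3 window held the letters at -149 and -44 from the gene start, the Cpt1a window at -94 and the Acacb window at 43, while the Mlycd and Eci2 windows held none. Over all members with a window, 31 genes with 34 windows, AGGTCA on either strand was found in 7 windows, or 20.6%, beside 16.3% of the 32851 windows of all genes. Those were the windows of Acacb, Acadm, Acadvl, Acsl6, Cpt1a, Echs1 and Ucp3. The full repeat AGGTCANAGGTCA, which contains the shorter letters, was in no member window and in 0.0396% of all windows. TCAAGGTCA, the extended site of estrogen-related receptors, was in the Acsl6 window alone and in 0.423% of all. GTAAACA, the core that forkhead factors such as the FoxO proteins bind, was in no member window and in 3.65% of all. Such a match is a description of letters, and a window without it says nothing of a factor's binding elsewhere.

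Ucp3, an uncoupling protein of the inner mitochondrial membrane of muscle, had the largest starvation ratio in knockout muscle and the largest but for Acad10 in control. Its signals were 282.2 in fed and 710.0 in starved controls, and 247.4 in fed and 855.1 in starved knockout muscle. Both starved arrays were far above both fed arrays. Starvation raised the signal 2.52-fold in control and 3.46-fold in knockout. The second Ucp3 probe set also rose in both genotypes but ordered them the other way, from 86.8 to 460.4 in control and from 98.8 to 390.9 in knockout, with log2 ratios of 2.41 and 1.98.

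The enzymes that set the level of malonyl-CoA, which inhibits carnitine palmitoyltransferase 1, both rose in both genotypes. Mlycd encodes malonyl-CoA decarboxylase, which removes malonyl-CoA, and its signals were 460.1 in fed and 1105.4 in starved controls and 419.7 and 1020.5 in knockout. The ratios, 2.40 and 2.43, nearly coincided, and the log2 ratios differed by -0.02 (control minus knockout). Acacb encodes acetyl-CoA carboxylase 2, which makes malonyl-CoA at the mitochondrial surface. Its signals were 624.0 and 1077.4 in fed and starved controls and 549.8 and 829.4 in knockout, which was 1.73-fold and 1.51-fold, the latter just above the threshold. The enzyme that makes malonyl-CoA and the one that removes it therefore rose on the same arrays.

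Of the genes for fatty acid activation none rose in control muscle. Acsl3, a long-chain acyl-CoA synthetase of the endoplasmic reticulum and lipid droplets, had signals of 239.4 and 229.8 in fed and starved controls and 227.9 and 376.0 in knockout. The starved knockout array alone stood apart, at 1.65 times the fed knockout signal and 1.64 times the starved control signal. A second Acsl3 probe set gave log2 ratios of 0.70 on starvation in knockout and 0.44 for starved knockout over starved control, the latter under the threshold. Acsl5, a synthetase of mitochondria and endoplasmic reticulum, moved the other way between genotypes, with 256.1 and 252.7 in control and 190.4 and 161.3 in knockout. It fell in starved knockout relative to starved control muscle, to 0.638 of its signal, while its change on starvation was within the threshold in both genotypes. Acsl6, a synthetase best known from brain, gave 690.2 and 676.4 in control and 857.7 and 1003.6 in knockout. The starved knockout signal was 1.48 times that of starved control, just under the threshold. Acsl4, which prefers arachidonic acid, stayed between 436.9 and 502.8 on the 4 arrays.

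In the carnitine system only the liver-type carnitine palmitoyltransferase was called. Cpt1a, which catalyses the transfer onto carnitine at the outer membrane, had signals of 157.6 in fed and 266.9 in starved controls and 192.7 and 244.9 in knockout. The ratio was 1.69 in control, a call, and 1.27 in knockout, below the threshold, and the fed knockout signal already lay above the fed control. The other probe sets of Cpt1a, with signals between 25.5 and 52.9, gave control log2 ratios of 0.24 and 0.36, below the threshold. Their knockout log2 ratios on starvation were 0.20 and 0.21. Unlike the first, they put fed knockout below fed control, at log2 ratios of -0.29 and -0.70. Cpt2, which returns the acyl group to coenzyme A inside mitochondria, gave 568.2 and 759.2 in control and 547.2 and 812.8 in knockout, so both starved arrays exceeded both fed arrays at ratios of 1.34 and 1.49. Crat, carnitine acetyltransferase, ranged from 1192.7 to 1447.5, again with the starved arrays highest. Slc22a5, the plasma membrane carnitine transporter OCTN2, gave 217.0 and 210.5 in control and 200.4 and 258.8 in knockout.

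The acyl-CoA dehydrogenases carry out the oxidation that opens each cycle, and they differ in the chain length they accept. Acadvl, for very long chains, had signals of 2009.7 and 2336.6 in fed and starved controls and 1874.7 and 2598.9 in knockout. Acadl, for long chains, gave 3793.6 and 5247.7 in control and 2884.8 and 4475.3 in knockout, and the knockout ratio of 1.55 passed the threshold where the control ratio of 1.38 did not. Acadm, for medium chains, gave 6287.6 and 5629.3 in control and 5247.4 and 5620.6 in knockout. Acads, for short chains, gave 544.4 and 513.1 in control and 499.8 and 578.0 in knockout. The long-chain enzymes thus had higher signals on both starved arrays, whereas the medium-chain and short-chain enzymes went slightly down in control and slightly up in knockout, with log2 ratios from -0.16 to 0.21. Acad9, also needed to assemble respiratory complex I, ranged from 204.6 to 270.7 and was lowest in starved knockout muscle. Acad11, which handles very long chains, gave 818.9 and 1006.0 in control and 674.8 and 730.8 in knockout, with both knockout arrays below both control arrays.

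Acad10 was the member with calls in all 4 comparisons, and its probe sets disagreed. The dehydrogenase is little studied, and the brighter probe set, of the x_at type that can bind several transcripts, gave 28.9 and 84.3 in fed and starved controls and 65.5 and 37.3 in knockout. Its starvation log2 ratio stood at 1.54 in control and at -0.81 in knockout, a difference of 2.36. The other probe set gave 34.2 and 72.3 in control and 35.0 and 60.0 in knockout and rose in both genotypes, with log2 ratios of 1.08 and 0.78. Both probe sets put starved control above fed control, and they gave opposite calls only on starvation in knockout. The median signal of the arrays lay between 22.9 and 26.3, and for probe sets this dim the scatter given above is 0.55 in log2.

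The trifunctional protein joins hydration, the second oxidation and thiolysis for long chains. Its α subunit gene Hadha had signals of 871.4 and 1150.7 in fed and starved controls and 728.7 and 1101.4 in knockout. Its β subunit gene Hadhb gave 4216.4 and 4858.5 in control and 3515.4 and 4780.6 in knockout. On these probe sets fed knockout was the lowest array and the starved arrays of both genotypes were close. A second bright Hadhb probe set, at 3214.9 and 3884.5 in control and 2707.8 and 2893.8 in knockout, also had fed knockout lowest but put starved knockout well under starved control, by -0.42 in log2. The starvation ratio of Hadha was 1.32 in control and 1.51 in knockout, the latter a call at the threshold, and that of Hadhb was 1.15 and 1.36. The second Hadhb probe set turned that order, with log2 ratios of 0.27 in control and 0.10 in knockout. Hadha and Hadhb stand head to head on chromosome 5, and their start sites are 273 bases apart. The Hadhb window, chr5:30155003-30155302 on the plus strand, is shown for this reason, with capitals for the 228 bases that it shares with the Hadha window, chr5:30154931-30155230 on the minus strand.
Hadhb: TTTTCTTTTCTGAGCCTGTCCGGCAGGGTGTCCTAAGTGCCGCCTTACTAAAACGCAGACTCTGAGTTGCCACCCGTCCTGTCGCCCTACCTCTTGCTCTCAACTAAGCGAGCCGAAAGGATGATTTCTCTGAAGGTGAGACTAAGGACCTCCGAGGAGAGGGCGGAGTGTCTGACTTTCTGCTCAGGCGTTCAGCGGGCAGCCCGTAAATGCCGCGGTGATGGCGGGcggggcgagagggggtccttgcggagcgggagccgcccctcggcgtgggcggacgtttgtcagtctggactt
Hadh, the short-chain 3-hydroxyacyl-CoA dehydrogenase, ranged from 6120.1 to 6694.2 and showed the smallest log2 ratios of this step, -0.10 and 0.02. A dim probe set of Hadh went from 92.0 to 13.6 on starvation in knockout, while its 2 bright probe sets gave 0.02 and 0.19 on the log2 scale. Echs1, the short-chain enoyl-CoA hydratase, ranged from 1741.2 to 2218.6 with ratios of 1.15 and 1.14. Acaa2, the mitochondrial thiolase, gave 892.3 and 974.6 in control and 745.2 and 946.6 in knockout. A further probe set of Acaa2, of the s_at type shared by several transcripts, differed, with 753.0 and 462.7 in control and 790.8 and 1152.4 in knockout. Another, about as bright as the first, gave 892.6 and 793.6 in control and 758.4 and 863.4 in knockout. Both of these went down in control, where the first went slightly up. The s_at probe set passed the threshold there, with a log2 ratio of -0.70. It also passed it for starved knockout over starved control, at 1.32. The counts of called genes use the first probe set, which was within the threshold in both comparisons.

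Double bonds of unsaturated fatty acids are moved or reduced by auxiliary enzymes before the cycle can go on. Eci2, an enoyl-CoA isomerase of mitochondria and peroxisomes, had signals of 914.6 and 1648.3 in fed and starved controls and 856.5 and 1593.7 in knockout. It rose 1.80-fold and 1.86-fold, and its log2 ratios of knockout over control were -0.09 in fed and -0.05 in starved muscle. Eci1, the mitochondrial isomerase for the same reaction, gave 2147.5 and 2249.5 in control and 1625.7 and 2185.7 in knockout, with ratios of 1.05 and 1.34. Its fed knockout array was the low one. Decr1, the 2,4-dienoyl-CoA reductase, gave 954.5 and 1117.4 in control and 827.6 and 1265.6 in knockout and rose 1.53-fold in knockout, while its control ratio of 1.17 was below the threshold. Ech1, a dienoyl-CoA isomerase, gave 2479.2 and 3098.7 in control and 2163.6 and 2953.3 in knockout. All 4 genes had a higher starvation log2 ratio in knockout than in control muscle, with a median difference of -0.24 (control minus knockout).

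Electrons from the dehydrogenases pass to the electron transfer flavoprotein and from it to ubiquinone. Its subunit genes changed little on starvation in control muscle. Etfa went from 3445.6 to 3556.3 in control and from 2802.3 to 3126.9 in knockout. Etfb went from 2635.6 to 2691.9 in control and from 2245.7 to 2737.1 in knockout. Etfdh, the dehydrogenase that hands the electrons to ubiquinone, had a larger ratio in each genotype than either subunit. Its signals were 1661.1 and 2135.4 in control and 1484.8 and 2236.5 in knockout, a ratio of 1.29 and of 1.51, the latter a call at the threshold.

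Among the peroxisomal genes, Hsd17b4, the D-bifunctional protein of peroxisomal β-oxidation, had signals of 852.1 and 1255.7 in fed and starved controls and 677.2 and 1107.0 in knockout. The ratio was 1.47 in control, just under the threshold, and 1.63 in knockout, and its second probe set rose in both genotypes, with log2 ratios of 0.72 and 0.92. Ehhadh, the L-bifunctional protein and a classical PPARα target in liver, gave 98.0 and 146.6 in control and 103.1 and 109.4 in knockout. Its control ratio of 1.496 was the highest below the threshold. Pex11a, which acts in peroxisome division, gave 201.5 and 189.8 in control and 209.8 and 305.3 in knockout. As with Acsl3, the starved knockout array alone was high, at 1.61 times starved control, and both Pex11a probe sets passed the threshold there, with log2 ratios of 0.69 and 0.75. Crot, which exports shortened chains from peroxisomes as carnitine esters, gave 577.3 and 415.1 in control and 471.7 and 448.1 in knockout, and its control log2 ratio of -0.48 was the lowest of the 34.

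**Figure D2:**
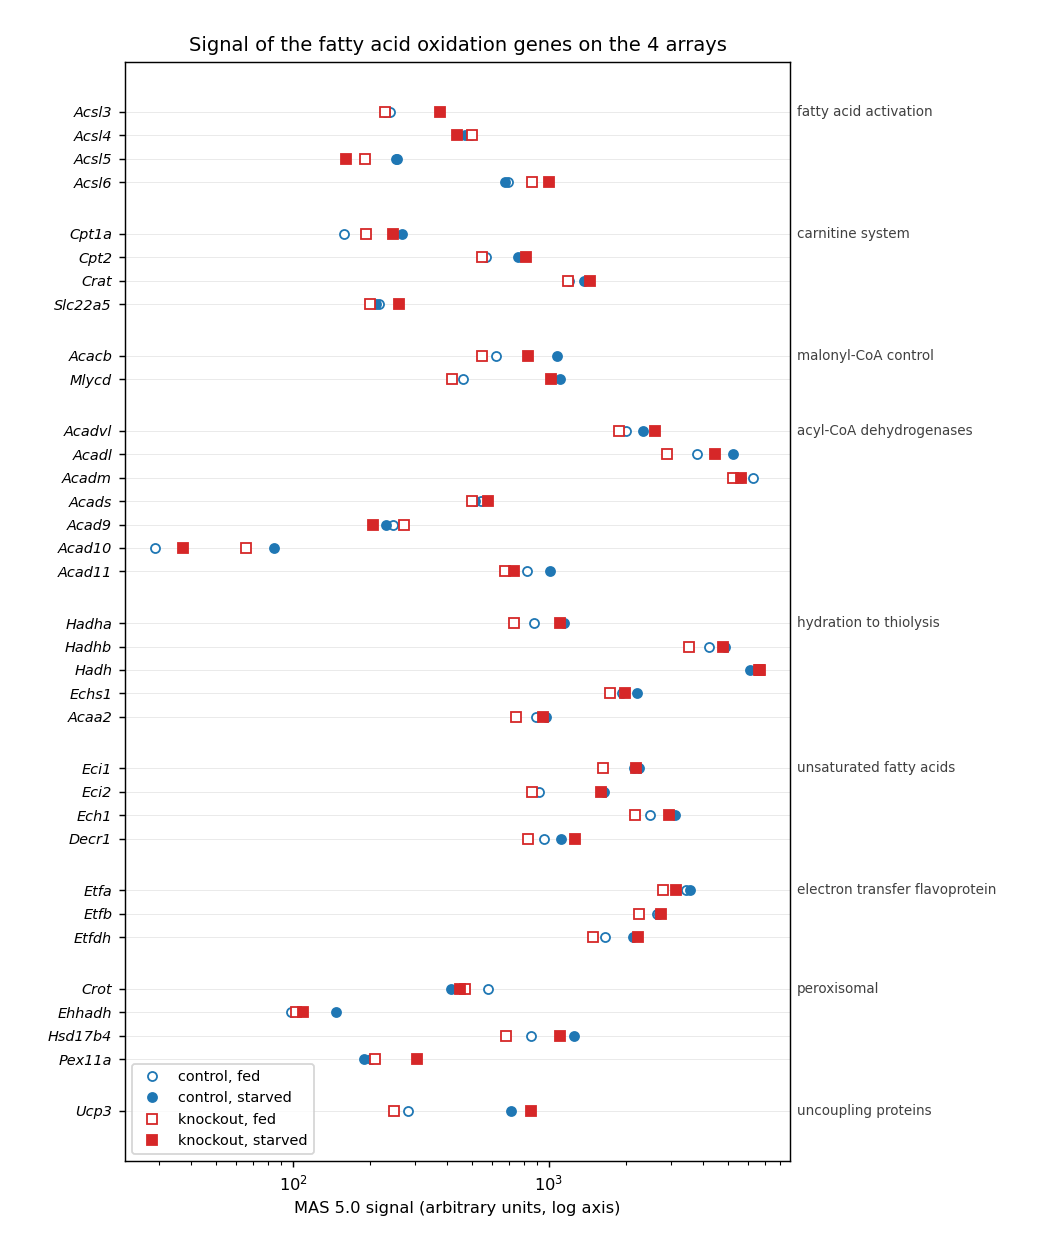
MAS 5.0 signal in arbitrary units (horizontal log axis) of each of the 34 genes on the 4 arrays: control fed (open circles), control starved (filled circles), knockout fed (open squares) and knockout starved (filled squares), 1 pooled array each. Both starved arrays lie to the right of both fed arrays for genes such as Mlycd, Eci2, Ucp3 and Hsd17b4, and the fed knockout array is the lowest for 24 of the 34 genes (29.6% of all genes). Positions compare arrays within a gene and not genes with each other.

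Between genotypes few members were called. In fed muscle, Acad10 on its brighter probe set was the only gene higher in knockout by the threshold and no gene was lower, while 3.38% of all genes were higher and 11.3% lower. In starved muscle Acsl3 and Pex11a were higher and Acsl5 and Acad10 lower in knockout, beside 6.39% and 14.6% of all genes. In total 20 of the 34 genes stayed within 1.5-fold in all 4 comparisons, and the share of all genes that did so was not calculated. In fed muscle 26 of the 34, 76.5%, had a lower signal in knockout than in control, as had 77.9% of all genes, with a median log2 ratio of -0.15, and all genes had a median of -0.20, so the members lay 0.04 above the array-wide shift. In starved muscle 14 were higher and 20, 58.8%, lower, beside 67.1% of all genes lower, with medians of -0.04 for the members and -0.16 for all genes, a difference of 0.12. The sign of these member medians depends on how the arrays are scaled: with arrays set to the same median they were -0.01 in fed and 0.14 in starved muscle, and after quantile normalization 0.04 and 0.10.

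**Figure D3:**
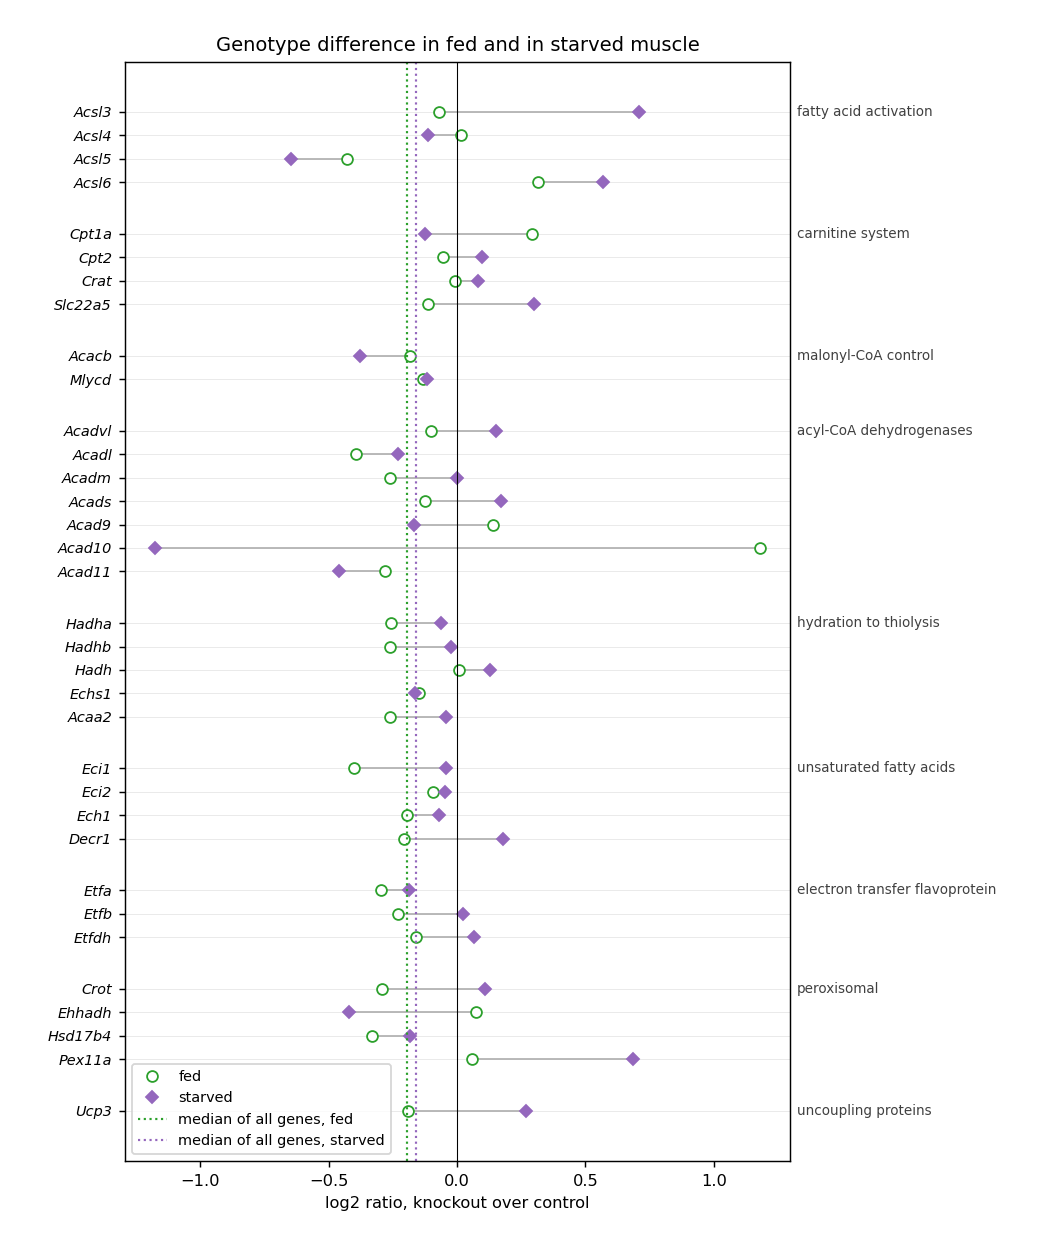
Log2 ratio of knockout over control signal (horizontal axis) for the 34 genes in fed (open circles) and starved muscle (diamonds), 1 array per condition. Dotted lines mark the medians over all genes, -0.20 fed and -0.16 starved. Most genes lie near those lines, and Acad10 lies farthest from them, at 1.18 fed and -1.18 starved. In starved muscle Acsl3, Pex11a and Acsl6 lie to the right and Acsl5 to the left.

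For 25 of the 34 members, 73.5%, the starvation log2 ratio was higher in knockout than in control muscle, against 54.3% of all 12565 genes. The median difference, control minus knockout, was -0.16 for the members and -0.04 for all genes. Signal level moved with this measure. Among genes with a mean signal of 500 or more, 61.2% had the higher ratio in knockout, and of the 24 members in that range 21 did, 87.5%, with a median difference of -0.18 beside -0.07 for all genes that bright. The difference was widest for Acsl3, at -0.78, Pex11a, at -0.63, and Ucp3, at -0.46, and went the other way for Acad10, at 2.36, Ehhadh, at 0.50, and Cpt1a, at 0.41. Another probe set of Ucp3, Hadhb, Cpt2, Hadh, Acad9 and Acsl4 gave the opposite order, so for these genes it depends on the probe set. Those of Cpt2 and Hadh were dim, with log2 ratios in control and knockout of 1.12 and -0.01, and of 0.25 and -2.76. For Acad9 they were -0.42 and -0.26, and for Acsl4 -0.31 and -0.09. On the probe sets used, all but 3 of the 24 bright members, Echs1, Acad11 and Acacb, shared the direction. All 4 arrays enter every one of these differences. The fed knockout signal was the lowest of the 4 for 24 of the 34 genes, 70.6%, beside 29.6% of all genes. Members and all genes were not matched for their starvation response, and the part of any single array in the differences was not tested. The hair shaft genes above also differed between the arrays compared here, and their part in these differences was not tested.

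The citric acid cycle and oxidative phosphorylation lists held no starvation calls but had the same sign of the genotype difference. None of 17 citric acid cycle genes and none of 28 oxidative phosphorylation genes rose or fell in either genotype. Their median log2 ratios on starvation were -0.20 and -0.19 in control and -0.05 and -0.04 in knockout, below the 0.20 and 0.36 of the fatty acid oxidation genes. The ratio was higher in knockout for 15 of the 17 and 27 of the 28, with median differences of -0.17 and -0.14, close to the -0.16 of the fatty acid oxidation genes. The muscle fibre markers had it too, for 10 of 13 and with a median difference of -0.13. These lists were not tested against each other. Of 11 measured genes of mitochondrial mass and biogenesis, 1 rose in control muscle, Nrf1, and none was called in knockout. Nrf1 was dim, at 46.3 and 74.6 in control and 42.8 and 59.2 in knockout, with log2 ratios of 0.69 and 0.47. For probe sets this dim the scatter given above is 0.55 in log2.

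**Figure D4:**
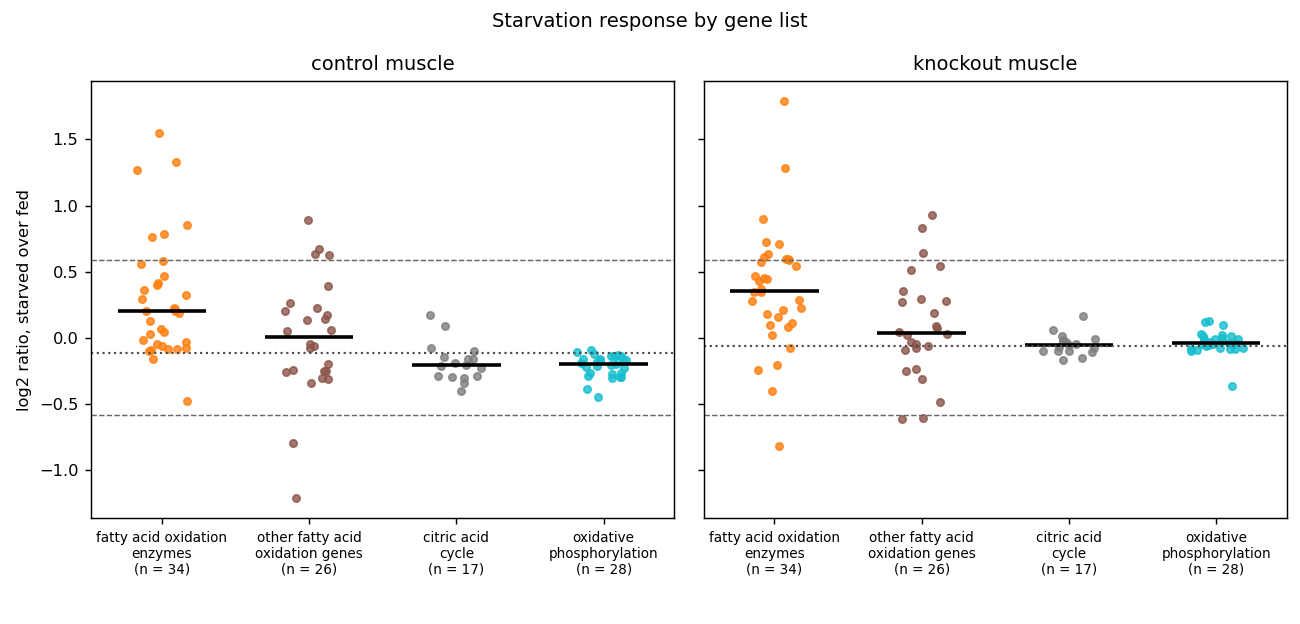
Log2 ratio of starved over fed signal (vertical axis) for the genes of 4 lists in control muscle (left) and knockout muscle (right), each point 1 gene. Thick bars are list medians, dashed lines 1.5-fold and dotted lines the medians over all genes, -0.11 and -0.06. The median of the 34 fatty acid oxidation enzymes, 0.20 and 0.36, lies above that of the citric acid cycle, -0.20 and -0.05.

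Of a further 26 measured genes of fatty acid handling and oxidation, 4 rose and 2 fell in control muscle and 3 rose and 2 fell in knockout, with medians of 0.00 and 0.03. Slc25a20, the carrier that takes acylcarnitines across the inner membrane, had signals of 1026.0 and 1589.6 in control and 961.9 and 1713.9 in knockout. Fabp3, the fatty acid binding protein of heart and muscle, gave 7628.2 and 11795.8 in control and 6054.2 and 11535.2 in knockout. Both rose in both genotypes, by 1.55-fold each in control. Slc27a1, the fatty acid transport protein FATP1, rose as well, from 190.6 to 352.9 in control and from 116.0 to 181.4 in knockout, and both knockout arrays were below their control counterparts by more than 1.5-fold. Abcd2, a peroxisomal importer of very long chains, fell from 543.5 to 235.1 in control and from 328.4 to 216.4 in knockout.

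The nuclear receptors and coactivators known to act on these genes followed other patterns. Of 15 measured, 4 rose and 3 fell in control muscle and 1 rose and 1 fell in knockout. Klf15, a metabolic transcription factor, rose from 351.9 to 939.5 in control and from 225.0 to 348.9 in knockout. Ppargc1b, the coactivator PGC-1β, fell from 416.6 to 157.1 in control and went from 359.4 to 285.0 in knockout, and Rxrg, a partner of PPAR receptors, fell from 501.8 to 209.1 in control and stayed at 489.1 and 515.8 in knockout. Nr4a3, an orphan nuclear receptor, rose from 45.2 to 123.6 in control and fell from 50.6 to 21.3 in knockout. Its starved knockout signal lay below the median of that array, 22.9. For probe sets as dim as that of Nr4a3 the scatter given above is 0.55 in log2. The median log2 ratio of this list was 0.10 in control and -0.24 in knockout, so its order between genotypes was opposite to that of the 34 members, which was not tested.

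Fat cells also express fatty acid oxidation genes, and their markers were present. The summed signal of the 5 measured of 8 adipocyte markers was 18483.6 in fed and 20795.0 in starved controls and 16020.1 and 16870.2 in knockout, lower in both knockout arrays. Of the 5, 1 rose in control, and 2 rose and 1 fell in knockout. Brown adipocytes, which burn fatty acids, were represented by Ucp1, Cidea and Elovl3. In fed control muscle all 3 lay below the array median of 26.3, and no fold is read from them. Their summed signal went from 42.4 to 183.1 in control and from 79.7 to 168.4 in knockout, with Ucp1 itself at 2.4 and 38.5 in control and 6.5 and 17.6 in knockout. The part of adipocytes in the signals of the fatty acid oxidation genes was not tested.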

How the data were processed

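The deposited values were MAS 5.0 signal intensities, summarised by the authors from 4 Affymetrix Mouse Genome 430 2.0 arrays. The submitters' processing notes name MAS5 and Affymetrix Expression Console, and the scaling target is not given in the sources used here. Control probe sets were dropped, which left 45037, of which 34945 had 1 gene in the platform annotation, 932 several and 9160 none listed. Symbols were updated through gene identifiers. The brightest probe set on average stood for each gene, and genes below the 50th percentile of signal on all 4 arrays were left out. Signals listed at 0 were set to 0.1. Ratios were formed on the log2 scale without rescaling and called at 1.5-fold; with 1 array per condition no statistical test was made. All members are named, and at most 4 called genes with the largest starvation ratio from each other list, where other genes are chosen after their values were seen. The members, lists and calculations were chosen with earlier results of these data known. Promoter windows came from RefSeq (GRCm38.p6). The number of arrays limits the precision, and the values carry no read depth. Median signal per array ranged from 22.9 to 26.3. Other scalings, filters, probe set rules, an offset of 16 and a 2-fold threshold were tried. The code for the calls was checked on simulated signals with changes larger than 1.5-fold, which does not measure how reliable calls near the threshold are. Python 3.11.15, numpy 2.4.6, pandas 2.3.3 and matplotlib 3.10.9 were used.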

Additional observations from a re-analysis of the deposited data

Results flagged for a closer look

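Acad10 was called in opposite directions on starvation in the genotypes. The log2 ratio of its brighter probe set was 1.54 in control and -0.81 in knockout muscle, a difference of 2.36 that was not tested, with 1 array on each side. The second probe set of the gene rose in both genotypes, with log2 ratios of 1.08 and 0.78.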

How the results depend on the processing

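Of 120 alternative values of the counts and medians, 22 moved. Over all genes the median log2 ratio was -0.20 in fed and -0.16 in starved muscle as deposited, and with arrays set to the same median it was -0.05 and 0.02. The members' median knockout over control log2 ratio became -0.0101 in fed and 0.141 in starved muscle with arrays set to the same median, and 0.0362 and 0.103 after quantile normalization. Under both the genes lower in starved knockout went from 2 to 1, since Acsl5 was at -0.46 and -0.45. Genes higher in starved knockout went from 2 to 3 under both, with Acsl6 at 0.75 and 0.73. Genes that rose on starvation went from 6 to 7 and 8 in control and from 10 to 12 under both in knockout. With a 75th percentile filter, which dropped Acad10, and with the probe set of highest fed control signal or without x_at and s_at probe sets (an alternative chosen after the data were seen), which kept it on its other probe set, 0 genes fell on starvation in knockout, 0 were higher in fed knockout and 1 was lower in starved knockout. With the mean of all probe sets, and without x_at and s_at probe sets, 1 gene in place of 2 was higher in starved knockout, with Acsl3 at 0.58 and 0.44. At 2-fold, 3 genes rose in control and 2 in knockout, 0 fell in knockout, and in starved knockout 0 were higher and 1 lower. Of 172 alternative values of the 22 called member ratios, 2 reversed, both Acad10 on starvation in knockout, at 0.78 with the probe set of highest fed control signal and without x_at and s_at probe sets, where it is called up. A further 12 went under the threshold, among them Cpt1a in control at 0.45 and Decr1 in knockout at 0.58 with the mean of all probe sets, and Acacb in knockout at 0.58 with an offset of 16. The median starvation ratios kept their sign under every alternative, from 0.20 to 0.26 in control and from 0.29 to 0.41 in knockout. No paired analysis was possible because each condition has 1 array. Dim probe sets limit Acad10 most.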
